A study of Mus musculus with 12 samples.

Results

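Chemokine ligands are small secreted proteins that draw leukocytes along a gradient, and 10 of their genes were followed in eosinophils of the mouse small intestine (SI): Ccl3, Ccl4, Ccl6, Ccl9, Ccl24, Cxcl1, Cxcl2, Cxcl3, Cxcl10, and Cxcl16. They were taken by gene symbol from the 36047 genes of the normalized count table, and all 10 passed the filter for testing, an average normalized count above 10, which 15249 genes passed. Eosinophils were sorted into α4β7+, α4β7− CD22−, and CD22+ subsets, with 4 libraries per subset and 12 in all. Live CD45+ CD11b+ eosinophils, gated as SiglecF+ and as negative for MHCII and Ly6G, came from lamina propria of the proximal gut, and cells of 2 mice were pooled for a library. All mice were wild-type C57BL/6J on standard chow, and no treatment is named for them. The labels call them female, whereas the study's methods name both sexes, and ages between 6 and 12 weeks, for its experiments as a whole. The study took the subsets as only approximate stages of age, with α4β7+ cells younger, α4β7− CD22− cells intermediate, and CD22+ cells, a villus-resident population, older. The question was which ligand transcripts differed between these subsets.

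Chemokines act through G protein-coupled receptors, and many of their genes lie in clusters of related copies. Cxcl1, Cxcl2, and Cxcl3 act on Cxcr2 and draw neutrophils. Ccl3, Ccl6, and Ccl9 act on Ccr1 and draw monocytes and macrophages, and Ccl4 is a close relative of Ccl3. Ccl24 is an eotaxin, which acts on Ccr3, the receptor that brings eosinophils themselves into the SI. Cxcl10 is an interferon-induced ligand of Cxcr3 on activated T cells, and Cxcl16 is made as a membrane protein, acts on Cxcr6, and is released by the protease Adam10. In many myeloid cells these genes are transcribed after inflammatory signals through NF-κB, and several of the transcripts carry AU-rich elements in the 3′ UTR that shorten their life.

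Sequence before the start site is shown for the 6 ligands whose transcripts were lower in both α4β7− subsets, since their promoters differed in whether they held the κB consensus, the sequence bound by NF-κB. RefSeq promoters (GRCm38.p6, 250 bases before to 50 after the start) were matched for 7 of the 10 genes, and Ccl4, Ccl24, and Cxcl16 had no entry. Each line gives the 250 bases before the start, 5′ to 3′ on the gene's strand, with matches to the κB consensus on either strand in capitals. The windows were chr5:90890995-90891244 on the + strand for Cxcl1, chr5:90903649-90903898 on the + strand for Cxcl2, chr5:90785851-90786100 on the + strand for Cxcl3, chr5:92348890-92349139 on the − strand for Cxcl10, chr11:83578637-83578886 on the − strand for Ccl9, and chr11:83593088-83593337 on the − strand for Ccl6.
Cxcl1: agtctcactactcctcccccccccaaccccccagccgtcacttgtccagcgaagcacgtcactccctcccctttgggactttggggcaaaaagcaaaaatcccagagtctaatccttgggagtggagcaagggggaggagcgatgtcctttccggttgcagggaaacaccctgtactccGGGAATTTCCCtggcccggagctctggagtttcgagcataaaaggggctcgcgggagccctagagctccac
Cxcl2: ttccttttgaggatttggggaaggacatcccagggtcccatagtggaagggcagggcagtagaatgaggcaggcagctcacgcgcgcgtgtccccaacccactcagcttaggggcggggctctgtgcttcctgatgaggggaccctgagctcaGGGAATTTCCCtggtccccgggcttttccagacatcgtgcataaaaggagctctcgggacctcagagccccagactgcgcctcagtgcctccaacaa
Cxcl3: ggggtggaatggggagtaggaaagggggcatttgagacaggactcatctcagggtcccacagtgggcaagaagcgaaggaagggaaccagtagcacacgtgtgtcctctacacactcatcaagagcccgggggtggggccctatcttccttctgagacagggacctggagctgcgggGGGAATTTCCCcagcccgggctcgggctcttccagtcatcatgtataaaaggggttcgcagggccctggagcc
Cxcl10: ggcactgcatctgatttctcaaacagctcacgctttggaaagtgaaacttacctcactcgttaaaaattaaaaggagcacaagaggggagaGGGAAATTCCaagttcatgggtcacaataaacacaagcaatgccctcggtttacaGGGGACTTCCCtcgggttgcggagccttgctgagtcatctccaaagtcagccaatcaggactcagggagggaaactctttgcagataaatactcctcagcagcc
Ccl9: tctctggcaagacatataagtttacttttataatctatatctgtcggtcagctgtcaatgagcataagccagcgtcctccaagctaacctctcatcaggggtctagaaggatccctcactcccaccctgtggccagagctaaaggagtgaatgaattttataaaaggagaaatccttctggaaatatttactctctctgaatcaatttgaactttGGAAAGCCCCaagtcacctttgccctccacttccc
Ccl6: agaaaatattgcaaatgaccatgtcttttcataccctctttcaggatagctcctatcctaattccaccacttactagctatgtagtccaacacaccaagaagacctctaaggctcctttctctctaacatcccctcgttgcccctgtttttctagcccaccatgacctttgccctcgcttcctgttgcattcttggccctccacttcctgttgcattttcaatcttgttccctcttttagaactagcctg

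The same 10 letters, GGGAATTTCC, were found in the promoters of Cxcl1, Cxcl2, and Cxcl3, beginning 71, 97, and 73 bases before the start, and each overlapped a second match on the other strand. Cxcl10 held GGGAAATTCC beginning 159 bases before the start and GGGGACTTCC beginning 104 bases before it, the latter overlapped by GGGACTTCCC. Ccl9 held 1 match on the opposite strand, GGAAAGCCCC as read on its own strand, 35 bases before the start. Ccl6 and Ccl3 held none in this window. In all, 5 of the 7 promoters held the κB consensus, beside 8.46% of all 32851 RefSeq promoters and 10.05% of the 14060 promoters of genes tested here. The promoter of Cxcl10 was the only 1 of the 7 with the core of the interferon-stimulated response element, found as GAAAGTGAAA beginning 213 bases before the start, and 3.44% of all promoters and 3.34% of those of tested genes held this core. TGANTCA, the AP-1 sequence, was found in Cxcl10 and Ccl9, beside 7.81% of all promoters and 5.89% of those of tested genes. TATAAA was found in Cxcl3 and Ccl9, beside 13.6% of all promoters and 8.90% of those of tested genes. All motifs were searched on both strands. In a global alignment over all 300 bases, the promoters of Cxcl2 and Cxcl3 were the most alike, with 60.3% identity, those of Cxcl1 and Cxcl2 had 55.6%, and those of Ccl6 and Ccl9 had 49.7%. A match of letters was not a measurement of binding.

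The 12 libraries held between 14286474 and 16915755 normalized counts, an estimated 13857986 to 17321869 reads, and a floor of 3 reads corresponded to 2.56 to 3.48 normalized counts. The gated genes followed the labels. Itgb7, the β7 integrin chain, averaged 2526 normalized counts in α4β7+ cells against 220.4 in α4β7− CD22− and 155.8 in CD22+ cells, and in the same order Cd22 averaged 1115, 4462, and 13334. The eosinophil genes Siglecf and Ccr3 were at or above 6884 and 10103 normalized counts in every library. Siglecf averaged 7534, 7827, and 7340 in the 3 subsets, whereas the 7 eosinophil markers in sum, most of it Alox15 and Ccr3, were lower alongside many of the ligands, at 60362 to 74328 normalized counts in α4β7+, 41873 to 47659 in α4β7− CD22−, and 30246 to 32340 in CD22+ libraries. The granule genes were low, with subset means of 149.7, 129.2, and 68.9 for Epx and 352, 185, and 109.7 for Prg2, and the part of these differences in the ligand values was not tested. Among neutrophil markers, Elane was at 0 in all libraries and S100a8 was at or under 1.03 normalized counts, and the summed list of 8 genes ranged from 85.2 to 185.8. Macrophage and monocyte markers summed to between 2649 and 3195 normalized counts in α4β7+ libraries, between 2221 and 2971 in α4β7− CD22− libraries, and between 1932 and 3747 in CD22+ libraries, so the subsets overlapped, and all 10 genes of that list were detected. In bulk RNA of sorted cells, fewer cells making a transcript and less of it per cell cannot be told apart.

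Of the 10 ligands, 6 were lower in the CD22+ subset than in the α4β7+ subset, none was higher, and 4 were not called. A gene was called where it differed by 1.5-fold or more with an adjusted p of 0.05 or less (limma on log2 of normalized count + 1, Benjamini-Hochberg over all genes tested), and by that rule 6.39% of all genes tested were lower and 5.6% higher. The same 6 ligands were lower in the α4β7− CD22− subset than in the α4β7+ subset, where 4.35% of all genes tested were lower, and 1 ligand, Ccl4, was higher, where 3.7% were higher. Between the CD22+ and α4β7− CD22− subsets, 3 ligands were lower in CD22+ cells and none higher, beside 0.393% lower and 0.21% higher of all genes tested. The median log2 fold change of the 10 ligands was −0.92 for α4β7− CD22− over α4β7+, −2.01 for CD22+ over α4β7+, and −0.38 for CD22+ over α4β7− CD22−, where the medians over all genes tested were 0.00305, 0.0138, and −0.00144. These comparisons share libraries with each other.

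**Figure D1:**
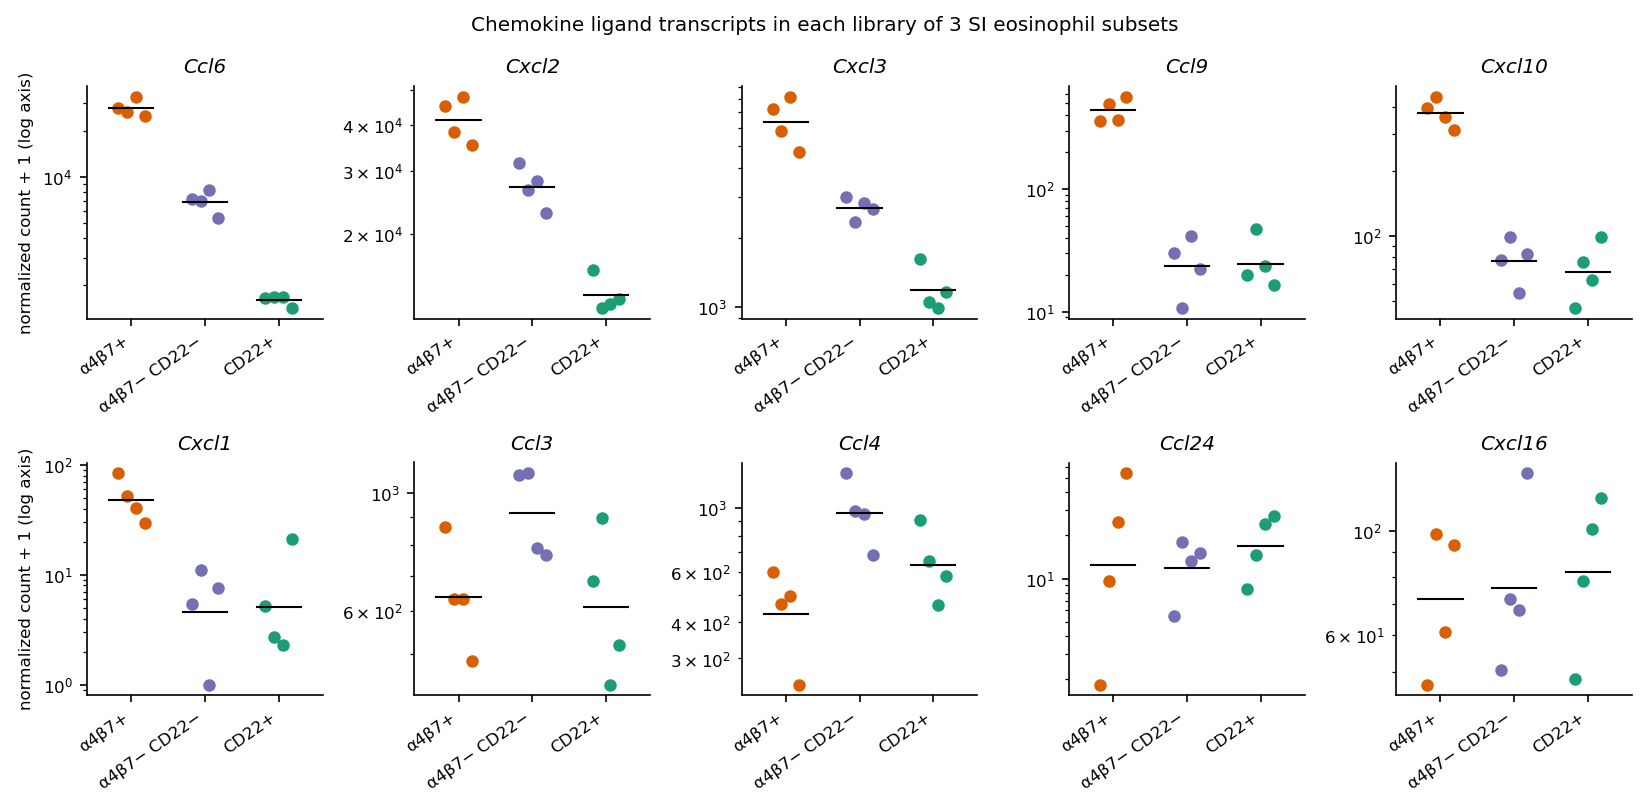
Normalized count + 1 (log axis, scaled per panel) of each chemokine ligand in the 4 libraries of each subset. Points are libraries and lines the mean on the log scale. Ccl6, Cxcl2, and Cxcl3 stepped down from α4β7+ to α4β7− CD22− and again to CD22+ libraries, Ccl9, Cxcl10, and Cxcl1 were above all other libraries in the α4β7+ ones, and the subsets overlapped for Ccl24 and Cxcl16.

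Ccl6 (ENSMUSG00000018927, chr11:83587882-83593087, GRCm38), a Ccr1 ligand that draws monocytes and macrophages, was lower at both steps by a similar size. Its normalized counts were 27920, 26249, 33217, and 24973 in the α4β7+ libraries. The α4β7− CD22− libraries held 7171, 7034, 8241, and 5455. The CD22+ libraries held 1637, 1671, 1656, and 1409. No library of one subset reached into the range of another, and the 3 subsets lay apart by about the same log2 step each time. Ccl6 was 4.05-fold lower in α4β7− CD22− cells than in α4β7+ cells (log2 fold change −2.02 ± 0.12 (SE), adjusted p = 4.40e-08) and a further 4.34-fold lower in CD22+ cells (−2.12 ± 0.12, adjusted p = 2.23e-07). Over the whole span from α4β7+ to CD22+ cells it was 17.6-fold lower (log2 fold change −4.13, 95% interval −4.38 to −3.88, adjusted p = 1.55e-11). By unadjusted p, Ccl6 ranked 2 among the 15249 genes in that comparison and 1 in the comparison of CD22+ with α4β7− CD22− cells. The α4β7− CD22− subset lay at the midpoint of the other subsets on the log2 scale, with a difference of 0.05 ± 0.10 from it (95% interval −0.17 to 0.27).

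Cxcl2 (ENSMUSG00000058427, chr5:90903871-90905938), a neutrophil attractant, was lower at each step but abundant throughout. The α4β7+ libraries held 45117, 38354, 48046, and 35265 normalized counts. In α4β7− CD22− libraries the counts were 31400, 26486, 28109, and 22881, and in CD22+ libraries 15927, 12505, 12880, and 13294. The subsets did not overlap, and the lowest library, of the CD22+ subset, was still at 12505. The log2 fold change was −0.61 ± 0.11 from α4β7+ to α4β7− CD22− cells (1.53-fold lower, adjusted p = 0.00192) and −0.99 ± 0.11 from α4β7− CD22− to CD22+ cells (1.99-fold lower, adjusted p = 3.44e-04), which made 3.04-fold over both (adjusted p = 1.18e-07). The first of these lay just above the 1.5-fold limit, and leaving out α4β7+ replicate 1 or 3 or α4β7− CD22− replicate 4 gave −0.57, −0.54, and −0.53, under the limit, with adjusted p of 0.00794, 0.00783, and 0.00746.

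Cxcl3 (ENSMUSG00000029379, chr5:90786103-90789600), a further Cxcr2 ligand, was lower at each step too. Its counts were 7232, 5774, 8177, and 4684 in α4β7+ libraries, 2997, 2337, 2833, and 2669 in α4β7− CD22− libraries, and 1615, 1055, 989, and 1162 in CD22+ libraries. Again no 2 subsets overlapped, although the α4β7+ libraries were spread more widely than for Cxcl2. The log2 fold changes were −1.23 ± 0.17 (2.34-fold lower, adjusted p = 1.72e-04) and −1.19 ± 0.17 (2.28-fold lower, adjusted p = 0.00273), and −2.42 over both (5.34-fold lower, adjusted p = 1.08e-07). The α4β7− CD22− subset differed from the midpoint by −0.02 ± 0.15 for Cxcl3 and by 0.19 ± 0.10 for Cxcl2, neither of which was called (adjusted p = 0.978 and 0.461). Cxcl2 and Cxcl3 are close copies: 34.8% of the Cxcl3 transcript and 19.8% of the Cxcl2 transcript matched other genes at 90% identity or more, with a longest match of 354 bases between them, and how the authors' counting divided reads from this stretch is uncertain.

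For Ccl9, Cxcl10, and Cxcl1, every α4β7+ library stood above every other library, and the 2 α4β7− subsets overlapped each other. Ccl9 (ENSMUSG00000019122, chr11:83572919-83578636), the neighbour of Ccl6 and a ligand of the same receptor, held 357, 494, 365, and 568 normalized counts in α4β7+ libraries. The α4β7− CD22− libraries held 29.3, 9.68, 40.6, and 21.2, and the CD22+ libraries 19.1, 46.1, 22.7, and 15.5. The last 2 subsets overlapped, and every one of their libraries was below every α4β7+ library. Of the Ccl9 transcript, 9.15% matched other genes at 90% identity or more, 1482 of them, with a longest match of 194 bases to Uevld. The part of reads from such stretches in the low Ccl9 counts was not tested. Ccl9 was 18.7-fold lower in α4β7− CD22− cells (log2 fold change −4.23 ± 0.40, adjusted p = 5.25e-06) and 17.8-fold lower in CD22+ cells (−4.15 ± 0.40, adjusted p = 2.66e-06). Between CD22+ and α4β7− CD22− cells the difference was 0.07, with a 95% interval of −0.78 to 0.93 (adjusted p = 0.98), so that a difference of any size within that interval remained possible.

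Cxcl10 (ENSMUSG00000034855, chr5:92346638-92348889), the interferon-induced ligand of Cxcr3, held 393, 445, 357, and 310 normalized counts in α4β7+ libraries, 76.5, 98.2, 53.3, and 81.0 in α4β7− CD22− libraries, and 45.1, 74.4, 61.1, and 98.4 in CD22+ libraries. As with Ccl9, the lowest α4β7+ library was far above the highest of the other subsets. The log2 fold changes against α4β7+ cells were −2.29 ± 0.24 in α4β7− CD22− cells (4.89-fold lower, adjusted p = 1.47e-05) and −2.46 ± 0.24 in CD22+ cells (5.49-fold lower, adjusted p = 3.27e-06). The CD22+ and α4β7− CD22− subsets differed by −0.17 (95% interval −0.69 to 0.35, adjusted p = 0.901). The gene lies within Art3 on the opposite strand, which averaged 92.2, 193.2, and 205.3 normalized counts in the 3 subsets. The sources used here do not say whether counting used strand. Reads were pseudoaligned with Kallisto, and 0% of the Cxcl10 transcript matched other genes at 90% identity or more. Art3 transcripts thus held no such stretch of Cxcl10.

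Cxcl1 (ENSMUSG00000029380, chr5:90891241-90893115), a Cxcr2 ligand like Cxcl2 and Cxcl3, had few counts in these cells. It held 83.3, 50.7, 39.7, and 28.9 normalized counts in α4β7+ libraries, 4.41, 10.1, 0, and 6.59 in α4β7− CD22− libraries, and 4.23, 1.71, 1.32, and 20.2 in CD22+ libraries. Of these 8 values outside the α4β7+ subset, 3 lay under the floor of 3 reads, 1 of them in an α4β7− CD22− and 2 in CD22+ libraries, and the highest of the 8 was still below the lowest α4β7+ library. Cxcl1 had a log2 fold change of −3.38 ± 0.81 in α4β7− CD22− cells (adjusted p = 0.0111) and −3.22 ± 0.81 in CD22+ cells (adjusted p = 0.0102), and both sizes depend on the pseudocount at such low values. The α4β7− CD22− difference was −4.32 with a pseudocount of 0.1 and −1.96 with 10, and −2.64 without α4β7− CD22− replicate 3, the library at 0 (adjusted p = 0.0284). The CD22+ difference was −3.60 with a pseudocount of 0.1, no longer called (adjusted p = 0.0597), −1.90 with 10, and −3.91 without CD22+ replicate 4 (adjusted p = 0.00255). Between CD22+ and α4β7− CD22− cells Cxcl1 differed by 0.15, with a 95% interval of −1.59 to 1.89 (adjusted p = 0.98), a span too wide to show whether the 2 subsets were alike.

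The shape was tested as the difference between the α4β7− CD22− subset and the midpoint of the α4β7+ and CD22+ subsets on the log2 scale, in which 0.367% of all genes tested were lower and 0.262% higher. Of the 10 ligands, 2 were called lower than the midpoint and none higher. Ccl9 lay −2.15 ± 0.35 from the midpoint (adjusted p = 0.00619) and Cxcl10 −1.06 ± 0.21 (adjusted p = 0.022). The call of Cxcl10 was lost when 1 library was left out, with an adjusted p of 0.0719, 0.0839, and 0.0529 without α4β7− CD22− replicates 1, 3, and 4. Cxcl1 had a difference of −1.77 ± 0.70 that was not called (adjusted p = 0.302).

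**Figure D2:**
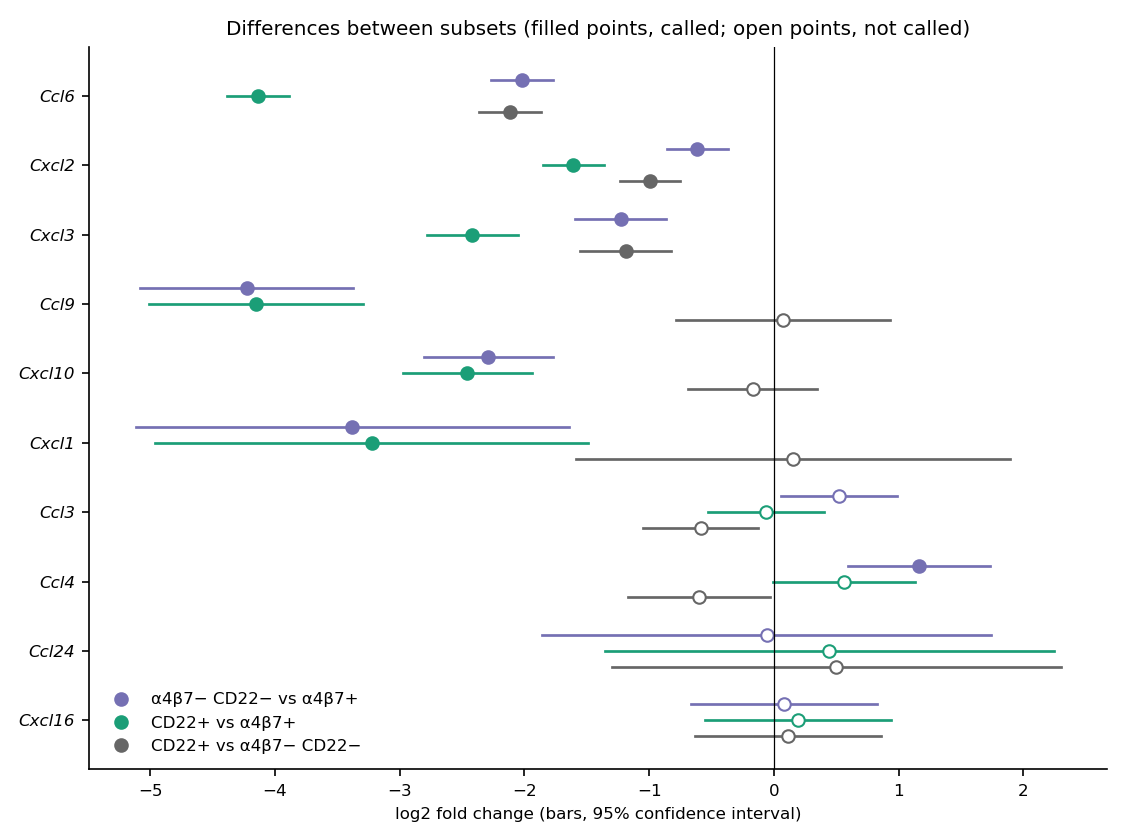
Log2 fold change (x axis) of each ligand in 3 comparisons of subsets, with 95% confidence intervals. Filled points were called and open points were not. The intervals of Ccl6, Cxcl2, and Cxcl3 lie below 0 in all 3 comparisons, while those of Ccl9, Cxcl10, and Cxcl1 include 0 for CD22+ with α4β7− CD22− cells.

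Ccl3 and Ccl4, the ligands also known as MIP-1α and MIP-1β, were not called lower in either α4β7− subset. Ccl4 (ENSMUSG00000018930, chr11:83662584-83664683) held 598, 462, 494, and 242 normalized counts in α4β7+ libraries, 1319, 972, 954, and 684 in α4β7− CD22− libraries, and 903, 655, 460, and 578 in CD22+ libraries. Every α4β7− CD22− library was above every α4β7+ library, while the CD22+ libraries overlapped both. Ccl4 was 2.24-fold higher in α4β7− CD22− than in α4β7+ cells (log2 fold change 1.16 ± 0.27, adjusted p = 0.00838). In CD22+ cells it differed by 0.56 from α4β7+ cells (95% interval −0.01 to 1.13, adjusted p = 0.164) and by −0.60 from α4β7− CD22− cells (95% interval −1.17 to −0.03, adjusted p = 0.477). The α4β7− CD22− subset lay 0.88 ± 0.23 above the midpoint, which was not called (adjusted p = 0.087). It was called in a limma fit that also grouped libraries by replicate number (adjusted p = 0.0122), a pairing that is uncertain for α4β7+ libraries.

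Ccl3 (ENSMUSG00000000982, chr11:83647844-83649355) held 861, 631, 631, and 482 normalized counts in α4β7+ libraries, 1080, 1087, 787, and 764 in α4β7− CD22− libraries, and 684, 897, 436, and 517 in CD22+ libraries. The 3 subsets overlapped. Its log2 fold changes were 0.52 ± 0.22 for α4β7− CD22− over α4β7+ (95% interval 0.06 to 0.99, adjusted p = 0.131), −0.06 for CD22+ over α4β7+ (95% interval −0.53 to 0.40, adjusted p = 0.879), and −0.59 for CD22+ over α4β7− CD22− (95% interval −1.05 to −0.12, adjusted p = 0.329). None was called. In each of the 4 same-numbered pairs, both Ccl3 and Ccl4 were lower in the CD22+ than in the α4β7− CD22− library, and neither was called for this comparison in the paired fit. The interval between CD22+ and α4β7+ cells did not reach the −1.61 of Cxcl2 in the same comparison.

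Ccl24 and Cxcl16 were not called in any of the comparisons, and single libraries of a subset lay further apart than the subset means. Ccl24 (ENSMUSG00000004814, chr5:135569937-135573049), the eotaxin, held 0.822, 8.58, 23.7, and 53.4 normalized counts in α4β7+ libraries, 4.52, 17.1, 12.2, and 14.1 in α4β7− CD22− libraries, and 7.45, 13.5, 23.2, and 26.1 in CD22+ libraries. Its difference between CD22+ and α4β7+ cells was 0.44 with a 95% interval of −1.35 to 2.24, wide enough to include the 1.16 by which Ccl4 differed between other subsets. Cxcl16 (ENSMUSG00000018920, chr11:70453983-70459984) held 46.1, 97.5, 59.9, and 92.5 in α4β7+ libraries, 49.6, 70.8, 67.1, and 132 in α4β7− CD22− libraries, and 47.4, 77.3, 100.2, and 117 in CD22+ libraries. The corresponding difference for Cxcl16 was 0.19 (95% interval −0.55 to 0.94, adjusted p = 0.761). A stretch of 552 bases of its transcript, 22.0% with the other matches, was also part of Zmynd15 on the opposite strand, which averaged 10.8, 6.96, and 9.001 normalized counts in the 3 subsets.

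In each subset, the library labelled replicate 1 held the lowest Ccl24, the lowest Cxcl16, and the lowest sum of the 10 macrophage and monocyte markers. That sum was 2649, 2221, and 1932 in the 3 replicate 1 libraries (α4β7+ first, CD22+ last), and its highest values, 3195, 2971, and 3747, were all in replicate 4, which also held the highest Cxcl16 in the α4β7− CD22− and CD22+ subsets. Genes of MHC class II moved likewise: Cd74, H2-Aa, and H2-Ab1 were the 3 genes whose pattern over the 12 libraries was most like that of Cxcl16, among 9170 genes with a mean of at least 100 normalized counts, with root mean square differences of 0.205, 0.227, and 0.234 log2 units. The sort had excluded MHCII+ cells. Epithelial markers, 10 genes in sum, also moved with Ccl24 in part: they were 3580, 5063, 6455, and 7496 normalized counts in α4β7+ replicates 1 to 4, where Ccl24 had the same order, 3357, 2564, 4905, and 4997 in the α4β7− CD22− libraries, and 1712, 2418, 7987, and 5215 in the CD22+ libraries. The part of these cells in the Ccl24 and Cxcl16 values was not tested. For Ccl3, Ccl4, Ccl6, and Cxcl2, replicate 4 held the lowest value in both the α4β7+ and the α4β7− CD22− subset.

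**Figure D3:**
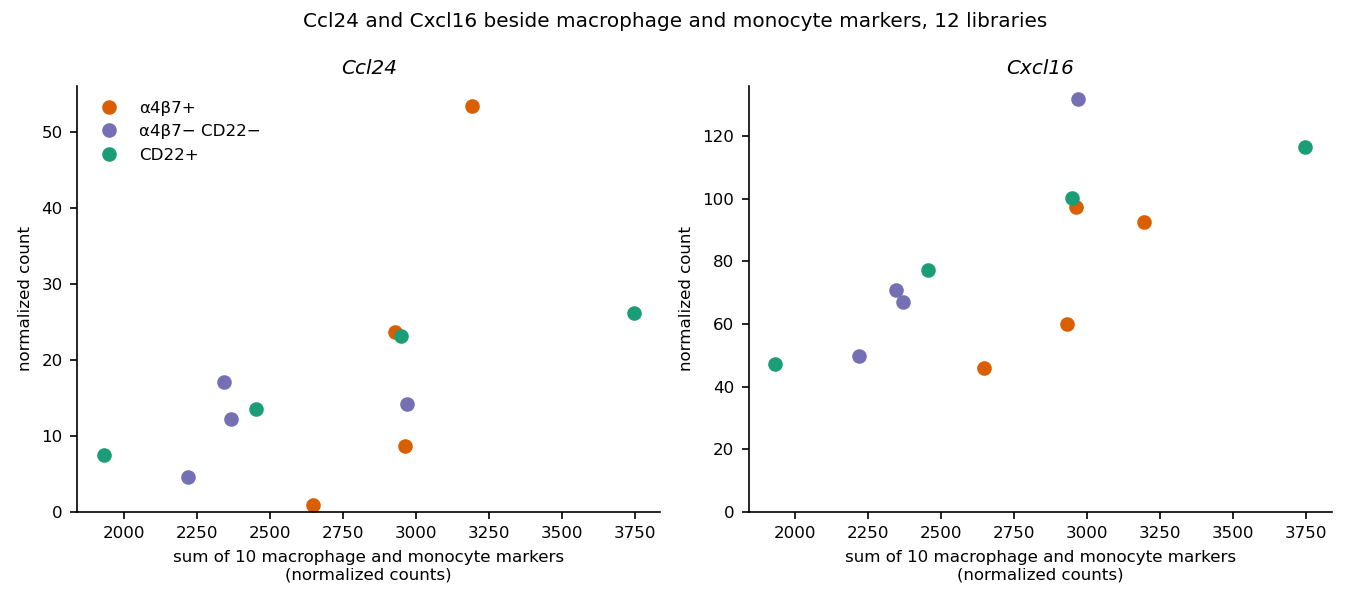
Normalized counts of Ccl24 (left) and Cxcl16 (right) against the summed normalized counts of 10 macrophage and monocyte markers, 1 point per library, coloured by subset. The replicate 1 library of each subset, with marker sums of 2649, 2221, and 1932, held the lowest value of both ligands in its subset.

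Levels of different ligands were compared as normalized counts per kilobase of the longest protein-coding transcript. By this measure Cxcl2 was first in all subsets, with 22429 ± 3176 per kilobase (SD, n = 4) in α4β7+ cells, 14642 ± 1905 in α4β7− CD22− cells, and 7343 ± 834 in CD22+ cells, ranks 17, 26, and 64 among 14029 coding genes tested. Ccl6 was second in the α4β7+ subset with 19507 ± 2517 (rank 25), where its libraries overlapped those of Cxcl2, and in CD22+ cells it was at 1106 ± 85.6 (rank 740). There it overlapped Cxcl3 at 1186 ± 278, Ccl4 at 983 ± 284, and Ccl3 at 827 ± 266, so that the order of these 4 was not resolved. The remaining ligands were low: Cxcl10 fell from 278 ± 42.4 in α4β7+ to 51.6 ± 16.7 in CD22+ cells, Ccl9 from 148 ± 34.2 to 8.59 ± 4.59, and Cxcl1 from 53.2 ± 24.7 to 7.19 ± 9.41, while Cxcl16 lay between 27.4 and 31.6 and Ccl24 between 9.26 and 16.7 in the subset means. The place of Cxcl3 depended on the transcript taken as its length: it was at place 2 in CD22+ cells by the coding transcript of 1016 bases and at place 5 by either the mean length or the longest transcript of any type, 3498 bases. By mean transcript length Ccl6, not Cxcl2, was first in α4β7+ cells.

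Of the summed level per kilobase of the 10 ligands, Cxcl2 and Ccl6 together made up 83.4% ± 1.55 (SD, n = 4) in α4β7+ cells, 78.03% ± 1.16 in α4β7− CD22− cells, and 73.3% ± 3.19 in CD22+ cells. The make-up shifted within that share. Ccl6 went from 38.8% ± 1.86 to 19.4% ± 1.93 and 9.66% ± 1.25, and Cxcl2 from 44.6% ± 0.733 to 58.6% ± 0.826 and 63.6% ± 2.79, although its own level was lower at each step. Ccl4 made up 1.33% ± 0.359, 5.89% ± 0.890, and 8.39% ± 1.42, and Ccl3 1.69% ± 0.321, 4.87% ± 0.773, and 7.15% ± 2.24. The share of Cxcl3 lay between 10.2% and 12.5% in the subset means, but between 3.69% and 4.202% by mean transcript length and between 3.43% and 4.21% by the longest transcript of any type.

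**Figure D4:**
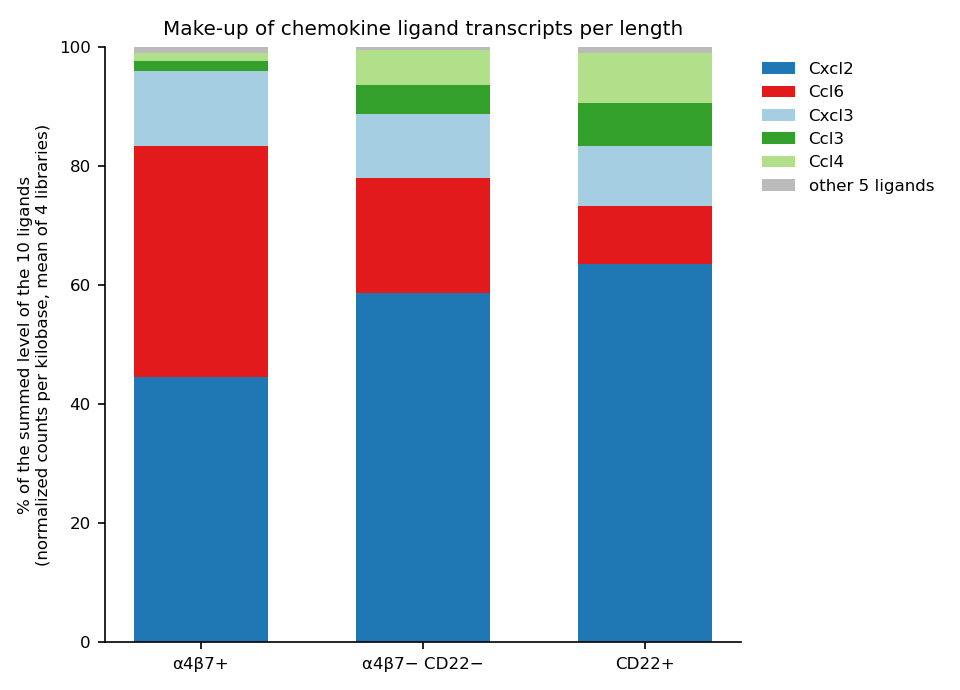
Share of each ligand in the summed level of the 10 ligands (y axis, percent of normalized counts per kilobase, mean of 4 libraries) by subset. Ccl6 shrinks from 38.8% to 9.66% while Cxcl2, Ccl3, and Ccl4 take larger shares.

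A ratio of 2 genes within a library is free of the scaling of that library, except for the 1 added to each count, which weighs on low genes. In this way 5 pairs of related ligands were compared between CD22+ and α4β7+ cells, 4 libraries each. The test was an exact two-sided permutation test whose smallest p is 0.0286. The log2 ratio of Cxcl2 to Cxcl3 was 2.71 ± 0.15 (SD) in α4β7+ and 3.52 ± 0.17 in CD22+ cells, a difference of 0.81, and the libraries did not overlap (exact p = 0.0286, adjusted over the 5 pairs 0.143). Ccl3 over Ccl4 went from 0.58 ± 0.28 to −0.05 ± 0.36 (difference −0.63, exact p = 0.0857, adjusted 0.19). Ccl6 over Ccl9 was 5.99 ± 0.48 and 6.01 ± 0.59, so that both ligands were lower by about the same factor over the whole span (difference 0.02, exact p = 0.971), while their steps differed as described. Cxcl1 over Cxcl2 differed by −1.62 (exact p = 0.114, adjusted 0.19) and Cxcl1 over Cxcl3 by −0.81 (exact p = 0.343, adjusted 0.429). With a pseudocount of 10, the difference was 0.51 for Cxcl1 over Cxcl3 and −0.41 for Ccl6 over Ccl9, so both signs depended on the pseudocount. No pair passed 0.05 after adjustment, and a pair alone at the smallest p reaches 0.143.

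The genes lie in groups, and the genes of a group were not all called, nor, on chromosome 11, called in 1 direction. On chromosome 11, 6 tested genes follow each other over 186 kb in the order Ccl5, Ccl9, Ccl6, Ccl3, Ccl4, and Wfdc18. Ccl9 and Ccl6, which lie 9.25 kb apart, were both lower in α4β7− cells, and so was Ccl5, which draws lymphocytes, with 324 ± 173, 98.6 ± 7.82, and 163 ± 17.1 normalized counts (log2 fold change −1.56 in α4β7− CD22− cells, adjusted p = 0.00137, and −0.85 in CD22+ cells, adjusted p = 0.0421). Summed markers of T and NK cells, through 5 of the 6 genes and not Cd3d, were also lower in α4β7− CD22− libraries, at 550.4 to 821 normalized counts against 873 to 1475 in α4β7+ and 865 to 1275 in CD22+ libraries, and their part in Ccl5 was not tested. Ccl3, 54.8 kb beyond Ccl6, and Ccl4, 13.2 kb further, were not called lower, and Ccl4 was higher in α4β7− CD22− cells. On chromosome 5, 7 tested genes stand in the order Ppbp, Pf4, Cxcl3, Cxcl15, Cxcl1, Cxcl2, and Mthfd2l. Between Cxcl3 and Cxcl1, both lower, lies Cxcl15, which was not called (0.34 and 0.37, adjusted p = 0.442 and 0.361). Mthfd2l, a mitochondrial folate enzyme 25.2 kb beyond Cxcl2, was lower in CD22+ cells (−0.65, adjusted p = 0.0419). Cxcl16 lies 0.256 kb from Med11, a Mediator subunit gene that was lower in both α4β7− subsets (−0.92 and −1.33, adjusted p = 7.66e-05 and 9.88e-07), while Cxcl16 was not called.

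**Figure D5:**
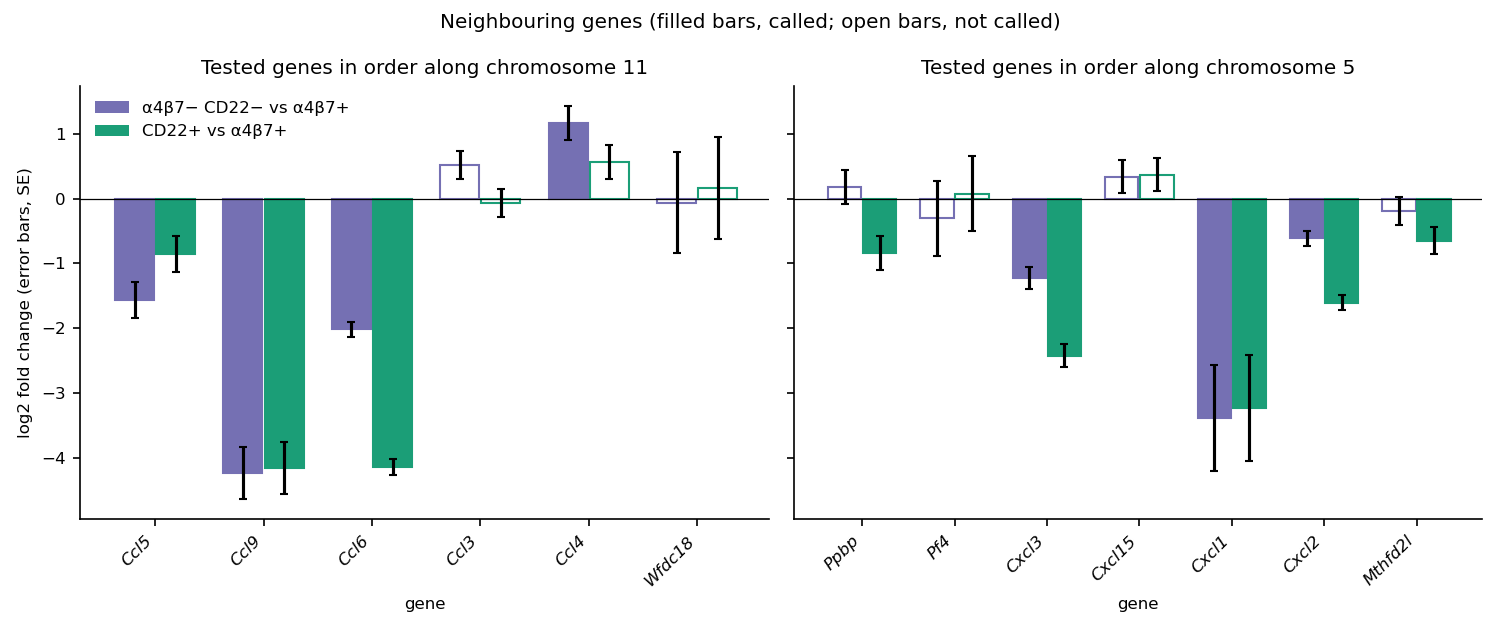
Log2 fold change against α4β7+ cells (y axis, error bars SE) of tested genes in their order along chromosome 11 (left) and chromosome 5 (right), without distances. Filled bars were called. Ccl5, Ccl9, and Ccl6 point down beside Ccl3 and Ccl4, and Cxcl3, Cxcl1, and Cxcl2 point down around Cxcl15.

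Other chemokine ligand genes were mostly low. Of 30 found in the table, 14 passed the filter. In α4β7− CD22− cells 1 of them, Ccl5, was lower than in α4β7+ cells, and in CD22+ cells 2 were, Ccl5 and the platelet and neutrophil chemokine Ppbp (148 ± 54.7, 160.2 ± 30.4, and 78.3 ± 12.4 normalized counts, log2 fold change −0.84, adjusted p = 0.0331). These counts stood beside 4.35% and 6.39% of all genes tested that were lower, none of the 14 was higher, and their median log2 fold change was 0.04 for CD22+ over α4β7+. Ccl2 and the eotaxin Ccl11 averaged at most 5.31 and 8.53 normalized counts in a subset and were not tested.

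Of 9 tested receptors and processing enzymes of these ligands, 2 were called lower and 1 higher in each comparison with α4β7+ cells, few genes to set beside the shares over all genes tested (4.35% lower and 3.7% higher in α4β7− CD22− cells, 6.39% and 5.6% in CD22+ cells). Ccr3, the receptor of Ccl24, averaged 25121, 15187, and 10773 normalized counts (log2 fold change −1.22 in CD22+ cells, adjusted p = 4.45e-08). Cxcr2, the receptor of Cxcl1, Cxcl2, and Cxcl3, averaged 780.3, 1338, and 1772 and was higher by 1.17 log2 units (adjusted p = 1.39e-06). Of the neutrophil markers, Ngp alone had means in the same order (31.6, 106.4, and 143.4 normalized counts), while S100a9 (19.0, 9.59, and 2.87), Ltf (32.6, 18.9, and 13.5), and Mpo (12.7, 8.06, and 6.39) had the opposite order. Cxcr6, the receptor of Cxcl16, averaged 71.1, 34.2, and 37.9 (−0.86, adjusted p = 0.0473). Ccr1 and the protease genes Adam10 and Adam17 were not called, with log2 fold changes between −0.13 and 0.14 for CD22+ over α4β7+ cells.

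Of 23 genes of the NF-κB pathway, a list that like the others was chosen with earlier results known, 10 were lower and 1 higher in α4β7− CD22− than in α4β7+ cells, and 12 were lower and 1 higher in CD22+ cells. Over all genes tested, 4.35% were lower and 3.7% higher in the first comparison, and 6.39% and 5.6% in the second. The median log2 fold change of the list was −0.39 and −0.61, beside 0.00305 and 0.0138 over all genes. Nfkbia, the inhibitor that NF-κB itself induces, went from 16134 ± 1088 to 1717 ± 111 and 466 ± 84.6 normalized counts (−5.12 in CD22+ cells, adjusted p = 3.47e-13). Tnfaip3, a feedback inhibitor of the pathway, went from 24177 ± 983 to 6185 ± 825 and 4323 ± 325 (−2.49, adjusted p = 2.76e-10). Tnf was lower by the same test (179 ± 18.4, 29.7 ± 9.23, and 20.9 ± 7.003, log2 fold change −3.09, adjusted p = 2.91e-06), as were Irak3 (−1.93) and Nfkb2 (−1.37). Il1b went the other way, from 17294 ± 2297 to 30634 ± 4515 and 33447 ± 5700 (0.94, adjusted p = 1.10e-04).

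Of 12 interferon pathway genes, fixed for Cxcl10, 1 was higher and none lower in α4β7− CD22− cells, and 1 was lower and 1 higher in CD22+ cells, counts close to what the shares over all genes tested give for a list of this size (3.7% higher in the first comparison, 6.39% lower and 5.6% higher in the second). Stat2 was higher by 1.55 log2 units in CD22+ cells (adjusted p = 1.00e-07) and Isg15 had a log2 fold change of −0.72 (adjusted p = 4.93e-04), where Cxcl10 had −2.46. Among 7 regulators of AU-rich transcripts, 3 were lower in both comparisons with α4β7+ cells, where 4.35% and 6.39% of all genes were, and none was higher: Zfp36, which binds AU-rich elements and shortens the life of such transcripts (30020 ± 3301, 14207 ± 1094, and 9942 ± 1126 normalized counts, −1.59, adjusted p = 1.55e-08), the RNase gene Zc3h12a (−1.06), and Zfp36l2 (−0.83).

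The ATTTA pentamer of AU-rich elements was counted in the 3′ UTR of the longest coding transcript in GENCODE. Cxcl2 held 11 in 1494 bases, Cxcl1 held 7 in 592, Cxcl3 held 5 in 645, Ccl3 held 5 in 409, and Ccl24 held 0 in 858. Ccl9, Ccl6, and Cxcl10, which were also lower in both α4β7− subsets, held 5, 4, and 3. At least 5 were found in 24.8% of 13886 tested coding genes. The longer TTATTTATT was found in 3 of the 10 ligands, 4 times in Cxcl2, 2 times in Cxcl1, and 1 time in Cxcl3, beside 8.64% of those genes. Ccl6, Ccl9, and Cxcl10 did not hold it, nor did Ccl3 and Ccl4, which were not called lower. Per 1000 bases of 3′ UTR, the pentamer count was 12.2 in Ccl3 and 2.03 in Ccl9, beside 1.87 over all of those genes.

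Immediate early genes, which also respond to tissue dissociation, were measured because chemokine transcripts can be induced in the same way. Of 23 such genes, 6 were lower and 1 higher in α4β7− CD22− cells, and 8 were lower and 1 higher in CD22+ cells, with medians of −0.07 and −0.21. Over all genes tested 4.35% and 6.39% were lower and 3.7% and 5.6% higher, so the higher calls were near the share over all genes. Dusp2 (−3.38), Ier3 (−3.21), Jun (−1.56), and Dusp1 (−1.20) were lower in CD22+ than in α4β7+ cells and Egr2 was higher (1.73), while Fos and Egr1 were not called (−0.09 and 0.02, adjusted p = 0.57 and 0.947). The part of a dissociation response in the ligands' values was not tested.

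The gene outside the 10 with the most similar pattern to a ligand over the 12 libraries was sought among 9170 genes with a mean of at least 100 normalized counts, each centred on its mean log2 value. Cxcl2 was nearest to C1rl (root mean square difference 0.145 log2 units), a complement-related protease, with Alox15, an eosinophil lipoxygenase, at rank 3 (0.176). Cxcl3 was nearest to Glipr2 (0.247) and Cxcl10 to Cd300lb (0.322). Ccl3 was nearest to the immediate early gene Egr1 (0.187), which averaged 30134, 39511, and 30755, highest in α4β7− CD22− cells, and Ccl4 to the collagen gene Col15a1 (0.321). Cxcl1 and Ccl24 had no near match, with 1.06 for Krt80 and 0.713 for Tgtp2. Among the ligands themselves, Cxcl2 and Cxcl3 (0.373) and Ccl3 and Ccl4 (0.397) were the closest pairs.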

How the data were processed

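RNA of 12 libraries was measured, 4 for each of the α4β7+, α4β7− CD22−, and CD22+ subsets. Per the study's methods, the authors pooled 2 mice for each library, used a stranded total RNA kit, pseudoaligned reads to mm10 with Kallisto, and normalized with DESeq2. The submitters' processing notes name Trimmomatic 0.39, kallisto 0.46.1, and DESeq2 1.38.2. The deposited signal values are the authors' normalized counts. Whole reads could not be recovered, since 56.4% to 76.4% of low values lay within 5% of a multiple of the step of their library, so count tests were not run. Floors of 3 reads are approximate and cover counting error only. All value columns were matched to libraries.

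The test was limma (version 3.58.1, R 4.3.3), applied to log2(normalized count + 1) of genes averaging above 10, with a variance trend and all 3 subsets, and p was adjusted within each comparison by Benjamini-Hochberg. Fold changes understate those of low genes. The study calls the libraries biological replicates, and the labels number them 1 to 4 in each subset without saying whether libraries of different subsets share mice. Same-numbered CD22+ and α4β7− CD22− libraries deviated together (r across genes 0.135 to 0.203), so the numbers pair the libraries there, and the paired fit was run as an alternative. For the other pairs of subsets r was not over 0.1 in every pair (0.043 to 0.137 for α4β7− CD22− with α4β7+, and −0.0586 to 0.182 for CD22+ with α4β7+). Transcripts and coordinates came from GENCODE for GRCm38 (35968 identifiers matched), shared sequence from BLAST 2.17.0, promoters from RefSeq, and alignments from Biopython 1.88.

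The members and lists were chosen with earlier results of these data known. Genes named are the 10 ligands, their neighbours, the nearest patterns, and in each list the called genes with the largest change between CD22+ and α4β7+ cells, 5 at most, beside others named for their values after these were seen. Alternatives tried were pseudocounts of 0.1 and 10, no filter or a filter at 50, 75th percentile and quantile scaling, no trend, only the subsets compared, the replicate block, adjusted p alone, other transcript lengths (the longest of any type, and both other lengths for shares, were chosen after seeing the data), and each library left out. Raw reads were not used here, and the nearest patterns of Ccl6 and Ccl9 are not reported here.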

Additional observations from a re-analysis of the deposited data

Results flagged for a closer look

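Of 30 groups of 4 libraries (10 ligands in 3 subsets), 2 held a library far from the other 3, where chance gives about 1 in 20. Ccl6 in CD22+ replicate 4 was 1409 normalized counts, below 1637, 1656, and 1671 in the other libraries. Leaving it out, the log2 fold change of Ccl6 between CD22+ and α4β7+ cells was −4.08 in place of −4.13. Cxcl1 in CD22+ replicate 4 was 20.2 normalized counts, above 1.32, 1.71, and 4.23. Without it, the difference of Cxcl1 was −3.91 (adjusted p = 0.00255, limma) in place of −3.22 (adjusted p = 0.0102). Both came from the same library. It also held the highest sums of macrophage and monocyte markers (3747) and of dendritic cell and class II markers (7806) in its subset. The part of such cells in the flagged values was not tested.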

How the results depend on the processing

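Leaving out each library in turn gave 6 to 7 ligands called for α4β7− CD22− with α4β7+ cells, 6 to 6 for CD22+ with α4β7+, 3 to 3 for CD22+ with α4β7− CD22−, and 1 to 2 for the midpoint comparison, where limma without a variance trend also called 1. Genes called for the midpoint comparison ranged from 56, without α4β7− CD22− replicate 1, to 101. With the adjusted p alone, the 4 comparisons called 2265, 3223, 164, and 187 genes in place of 1228, 1829, 92, and 96, and without the trend 54 for CD22+ with α4β7− CD22−.

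A replicate block gave 1254, 1843, 100, and 109 genes and 7, 6, 3, and 3 ligands, and Ccl4 in the midpoint comparison (adjusted p = 0.0122) was the only ligand whose call changed. The block pairs CD22+ with α4β7− CD22− libraries, and elsewhere pairing by number is uncertain. Mean r of same-numbered libraries was 0.087 for α4β7− CD22− with α4β7+, beside −0.0291 for other numbers. For CD22+ with α4β7+ it was 0.033, beside −0.0112.

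Cxcl2 in α4β7− CD22− cells was under 1.5-fold with quantile normalization (−0.56). Cxcl10 lost its midpoint call without the trend (adjusted p = 0.0625). Cxcl1 in CD22+ cells lost its call at a pseudocount of 0.1 (adjusted p = 0.0597) and was not tested with the filter at 50, so 5 ligands were called there under either setting. Signs changed only for differences that were not called: Ccl24 for α4β7− CD22− over α4β7+ with a pseudocount of 0.1 (0.11), and with quantile normalization Ccl9 (−0.0166) and Cxcl1 (−0.00288) for CD22+ over α4β7− CD22− and Cxcl16 for the midpoint (0.0311). Without single libraries the ranges were −0.98 to 0.66 for Ccl24 and −0.19 to 0.27 for Cxcl16 in α4β7− CD22− over α4β7+ cells. For CD22+ over α4β7+ they were −0.25 to 0.10 for Ccl3, −0.48 to 1.16 for Ccl24, and −0.0101 to 0.45 for Cxcl16. For CD22+ over α4β7− CD22− they were −0.30 to 0.35 for Ccl9, −0.58 to 0.57 for Cxcl1, −0.35 to 0.0188 for Cxcl10, and −0.0801 to 0.38 for Cxcl16. At the midpoint they were −0.0348 to 0.16 for Ccl6, −0.74 to 0.0895 for Ccl24, −0.0921 to 0.0548 for Cxcl3, and −0.29 to 0.18 for Cxcl16. Among ratios, a pseudocount of 10 gave −0.41 for Ccl6 over Ccl9 and 0.51 for Cxcl1 over Cxcl3, and leaving out libraries gave −0.16 to 0.30 for the former. The cause was not tested. Low values of Cxcl1 and Ccl24, near the floor of 3 reads, limit their precision.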
